A study of Mus musculus with 6 samples.

Results

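The cytosolic ribosomal protein genes were followed in primary mouse renal tubular epithelial cells (RTECs) with and without transforming growth factor (TGF)-β1. The genes were chosen by name: protein coding genes called Rpl or Rps with a number, Rplp0, Rplp1, Rplp2 and Rpsa, without pseudogenes. This gave 83 of the 46517 genes in the count files. Of the 83, 48 encode proteins of the large (60S) subunit, 3 encode the proteins of its stalk and 32 encode proteins of the small (40S) subunit. They lie on 19 chromosomes, with 4 of them on the X chromosome.

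The RTECs came from kidneys of wild type FvB mice, aged 4 to 6 weeks by the labels, while the study's methods give a younger age for them. All cultures spent 24 h in serum-free medium. The 3 TGF-β1 cultures then received TGF-β1 at 50 ng/ml for 24 h and the 3 control (CTL) cultures did not. Nothing in the labels says that the 3 cultures of a group came from separate mice, so the p-values measure the spread between these cultures, which may be technical.

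Polyadenylated RNA was sequenced as single 50-base reads, and 28313080 to 34183497 reads per culture were counted on genes. The cultures held epithelial transcripts, with 1635 to 8925 reads of Epcam and 2130 to 9913 of Cdh16. The proximal tubule transporters Slc34a1 and Slc5a2 had at most 10 and 3 reads in any culture. Leukocyte markers summed to 1.93 to 3.05 counts per 1000000 counts of a library (CPM) over all 6 cultures. Fibroblast markers summed to 76.2 to 240 CPM in CTL and to 49.2 to 123 CPM in TGF-β1, most of it from Pdgfrb. In bulk RNA, fewer cells of a type and less RNA per cell cannot be told apart.

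Ribosomes build all cellular protein, and each subunit is an assembly of ribosomal RNA with many small proteins that are needed in nearly equal amounts. Most ribosomal protein mRNAs begin with a cytosine and a run of pyrimidines, the terminal oligopyrimidine (TOP) tract, through which mTORC1 and the binding protein Larp1 set how well they are translated. Growing cells make much ribosomal protein mRNA, and because these short, abundant messages were often copied back into the genome, mice carry a large number of processed ribosomal protein pseudogenes. Kidney tubule cells respond to TGF-β1, a profibrotic cytokine, with a loss of epithelial transcripts.

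The annotated starts of a few of the genes described below are shown first, because a pyrimidine tract at the start is known for most of the family. The starts used in these cultures were not measured. Each line gives the 15 bases before and the 15 bases from the start in RefSeq (GRCm38.p6), on the strand of the gene, with the longest pyrimidine run over the start region in capitals.
Rpl13a, chr7:45128731-45128760, minus strand: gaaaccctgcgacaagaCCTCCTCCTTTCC
Rpl28, chr7:4792950-4792979, plus strand: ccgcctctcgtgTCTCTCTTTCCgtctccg
Rps18, chr17:33955651-33955680, minus strand: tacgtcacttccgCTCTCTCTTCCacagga
Rps27, chr3:90213634-90213663, minus strand: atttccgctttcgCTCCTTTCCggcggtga
Rplp2, chr7:141447636-141447665, plus strand: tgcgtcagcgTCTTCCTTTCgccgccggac
Rpl24, chr16:55966260-55966289, plus strand: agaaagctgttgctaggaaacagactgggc
Rps3, chr7:99483695-99483724, minus strand: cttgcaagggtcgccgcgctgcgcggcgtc
The run was 13 bases long in Rpl13a and 11 bases in Rpl28 and in Rps18, while the windows of Rpl24 and Rps3 held no run of 4 or more. Of the 83 genes, 63 had a promoter window of 300 bases in the RefSeq table. A gene with several windows was counted if any of them held the feature. A C at the start followed by 4 or more pyrimidines was present in 13 of the 63 (20.6%), against 2.71% of all 16522 protein coding genes with such windows. A run of at least 8 pyrimidines touching the bases around the start was present in 37 of the 63 (58.7%), against 26.8% of all these genes. The motif CCGGAAG, the core bound by GABP, was found on either strand in 26 of the 63 genes (41.3%), against 13.4% of all. AAGATGG, the core bound by YY1, was found in 10 (15.9%) against 7.26%, GGGCGG in 39 (61.9%) against 51.0%, and TATAAA in 7 (11.1%) against 14.3%. These matches describe the windows, and a window without a motif says only that these letters are not there.

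The family took a nearly constant part of the counted reads. Reads that aligned to several places were not counted, so the shares can fall short of the family's part of the RNA. Reads on the 83 genes made up 1.72%, 1.72% and 1.83% of all gene counts in the CTL cultures and 1.71%, 1.84% and 1.78% in the TGF-β1 cultures. The CTL mean was 1.76% ± 0.0603 (SD, n = 3). The mean of the TGF-β1 cultures was 1.78% ± 0.0618 (SD, n = 3), and the groups overlapped. Of the 100 genes with the most reads, 2 belonged to the family.

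For the comparison of TGF-β1 with CTL, counts were fitted with edgeR's quasi-likelihood test, scaled by the trimmed mean of M values (TMM), and p-values were adjusted by Benjamini-Hochberg over all 15862 genes tested. The fit tested 80 of the 83 genes. Rpl10l, Rpl39l and Rpl3l had too few reads to pass the filter on low counts. No ribosomal protein gene passed an adjusted p of 0.05 in either direction, while 5.00% of all genes tested were called higher and 6.69% lower. At an unadjusted p under 0.05 there were 12 of the 80, all with higher values in TGF-β1, which is 15.0% against 28.6% of all genes, and DESeq2 and limma-voom called none of the 80 either. The count at this unadjusted p was 1 without the pair of replicate 1 (1.25% against 12.1% of all genes). It was 7 without that of replicate 2 (8.75% against 30.5%). Without CTL replicate 1 it was 3 (3.75% against 19.1%), and without CTL replicate 2 it was 7 (8.75% against 26.5%). Without TGF-β1 replicate 2 it was 6 (7.5% against 25.5%), and with scaling by library size only 3 (3.75% against 29.0%). It rose to 18 without CTL replicate 3 (22.5% against 26.4%) and with every gene of at least 1 read kept (22.5% against 17.8%). With the replicate block described below it was 29 (36.2% against 44.0% of all genes). The lowest adjusted p by edgeR was 0.0654, in Rpl37.

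The fold changes of the family were small and mostly above 0. The log2 fold change was above 0 in 76 of 80 genes, with a median of 0.09 and a range from -0.05 to 0.37, beside a median of -0.003 over all genes tested. Each gene's 95% interval shows how large a change the 3 cultures per group leave possible. For 59 of the 80 genes (73.8%) the interval lay between -0.3 and 0.3 on the log2 scale, against 27.7% of all genes. Fewer cultures gave wider intervals, and the count was 36 of 80 without TGF-β1 replicate 1 (45.0% against 19.2% of all genes), 39 without TGF-β1 replicate 3, 17 without the pair of replicate 1 and 25 without that of replicate 3. Genes with mean counts in the same range as the family were measured less closely, with a median SE of 0.074 against 0.061 in the family. Of these 8907 genes 46.4% had such an interval, 7.04% were called higher and 5.66% lower, with a median log2 fold change of 0.02. The larger SE by itself makes such intervals rarer among them.

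**Figure D1:**
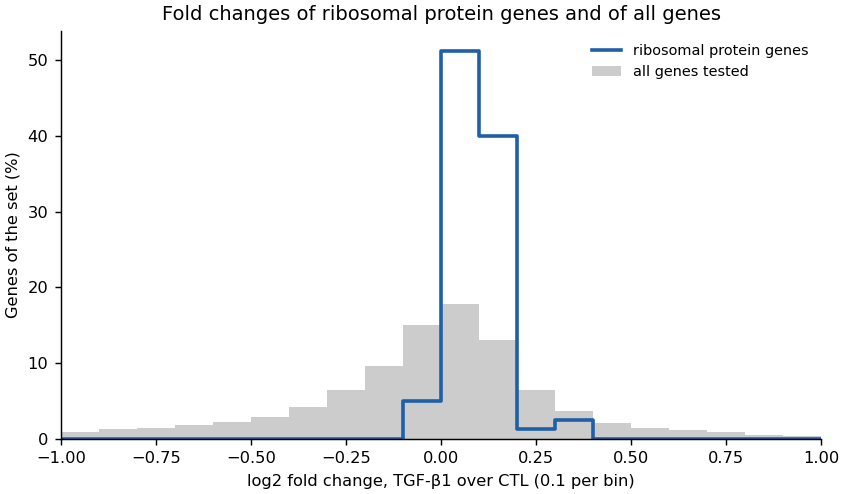
The log2 fold change of TGF-β1 over CTL (horizontal axis, bins of 0.1) is plotted for all 15862 genes tested (grey bars) and the 80 ribosomal protein genes (blue line) as the percentage of each set, with values beyond 1 in either direction not drawn (7.05% of all genes, 0 of the family). The blue line is narrow, with 51.2% of the genes between 0 and 0.1 and 40.0% between 0.1 and 0.2.

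How far the family's fold changes lay above 0 depended on the scaling and on the cultures that were kept. The TMM factors were 1.02 to 1.03 in CTL and 0.960 to 0.987 in TGF-β1. With scaling by library size only, the median of all genes moved to -0.08 and that of the family to 0.01. In that fit 49 of 80 genes (61.25%) were above 0, against 36.2% of all genes. The family's median thus stayed above that of all genes. In the TGF-β1 culture of replicate 2 the median gene of the family stood at 108.0% of its mean over the 6 cultures, against 94.7% and 95.4% in CTL replicates 1 and 2, 100.9% in CTL replicate 3, and 98.9% and 102.3% in TGF-β1 replicates 1 and 3. Without both cultures of replicate 2 the family's median log2 fold change was 0.05. The replicate 2 cultures also stood apart in cell markers. Epcam had 2004 and 1694 normalized counts in the CTL and TGF-β1 cultures of replicate 2, against 5161 to 9116 in the other 4, and the epithelial keratin Krt8 had 6280 and 9604 against 17450 to 29059. Pdgfrb, a fibroblast and pericyte receptor, had 7195 and 3636 against 1451 to 3215. The part of these differences in the family's values was not tested.

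**Figure D2:**
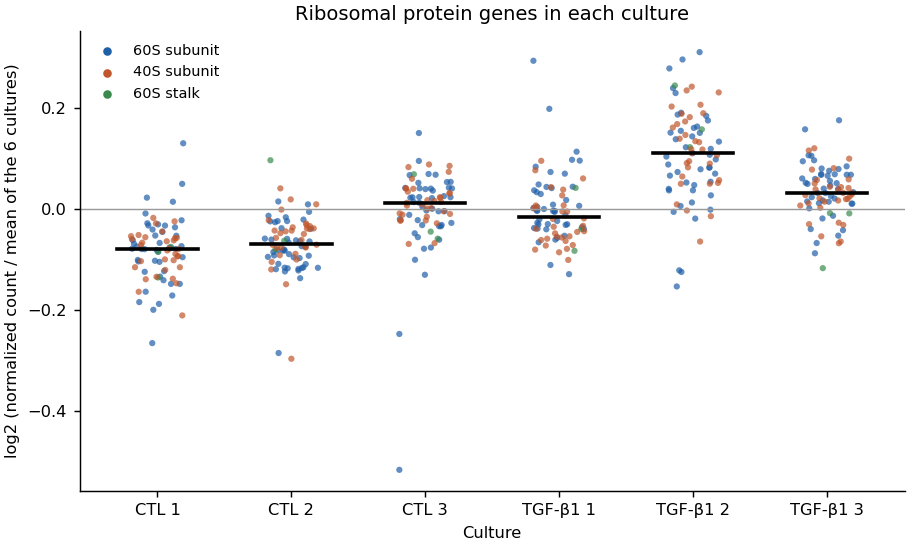
Each point is 1 of the 80 ribosomal protein genes in 1 culture, as the log2 ratio of its TMM-normalized count to its mean over the 6 cultures, and black bars are medians. The TGF-β1 culture of replicate 2 stands highest, and the median of CTL replicate 3 lies between those of the other TGF-β1 cultures.

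Cultures with the same replicate number varied together, so each TGF-β1 culture was also compared with the CTL culture of its number by adding the number to the edgeR model as a block. With the block, 11 of the 80 genes rose and none fell, which is 13.8% of them, against 15.1% of all genes called higher and 19.1% called lower. The family's share of higher calls was thus near that of all genes, and its share of lower calls was 0. Among the 11 were Rpl23a, Rpl24, Rpl13a, Rpl28, Rpl37, Rpl17, Rpl27 and Rpl31 of the 60S subunit and Rps13 of the 40S subunit. They are named after their values were seen, and none of the 11 passed the test without the block. Without the pair of replicate 1, none of the 80 was called with the block, against 6.43% of all genes called higher. Without that of replicate 2 there were 8 (10.0% against 14.3%), and without that of replicate 3 there were 25 (31.25% against 16.1%), all higher. Within pairs, the median log2 ratio of TGF-β1 to CTL over the 80 genes was 0.06 in replicate 1, 0.18 in replicate 2 and 0.03 in replicate 3. Of the 80 genes, 48 were higher in TGF-β1 in all 3 pairs, against 30.4% of all genes, and 0 were lower in all 3.

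The groups did not overlap in 20 of the 80 genes (25.0%), each time with TGF-β1 higher, against 17.2% of all genes tested. In the other direction there was none, against 18.0% of all genes.

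**Figure D3:**
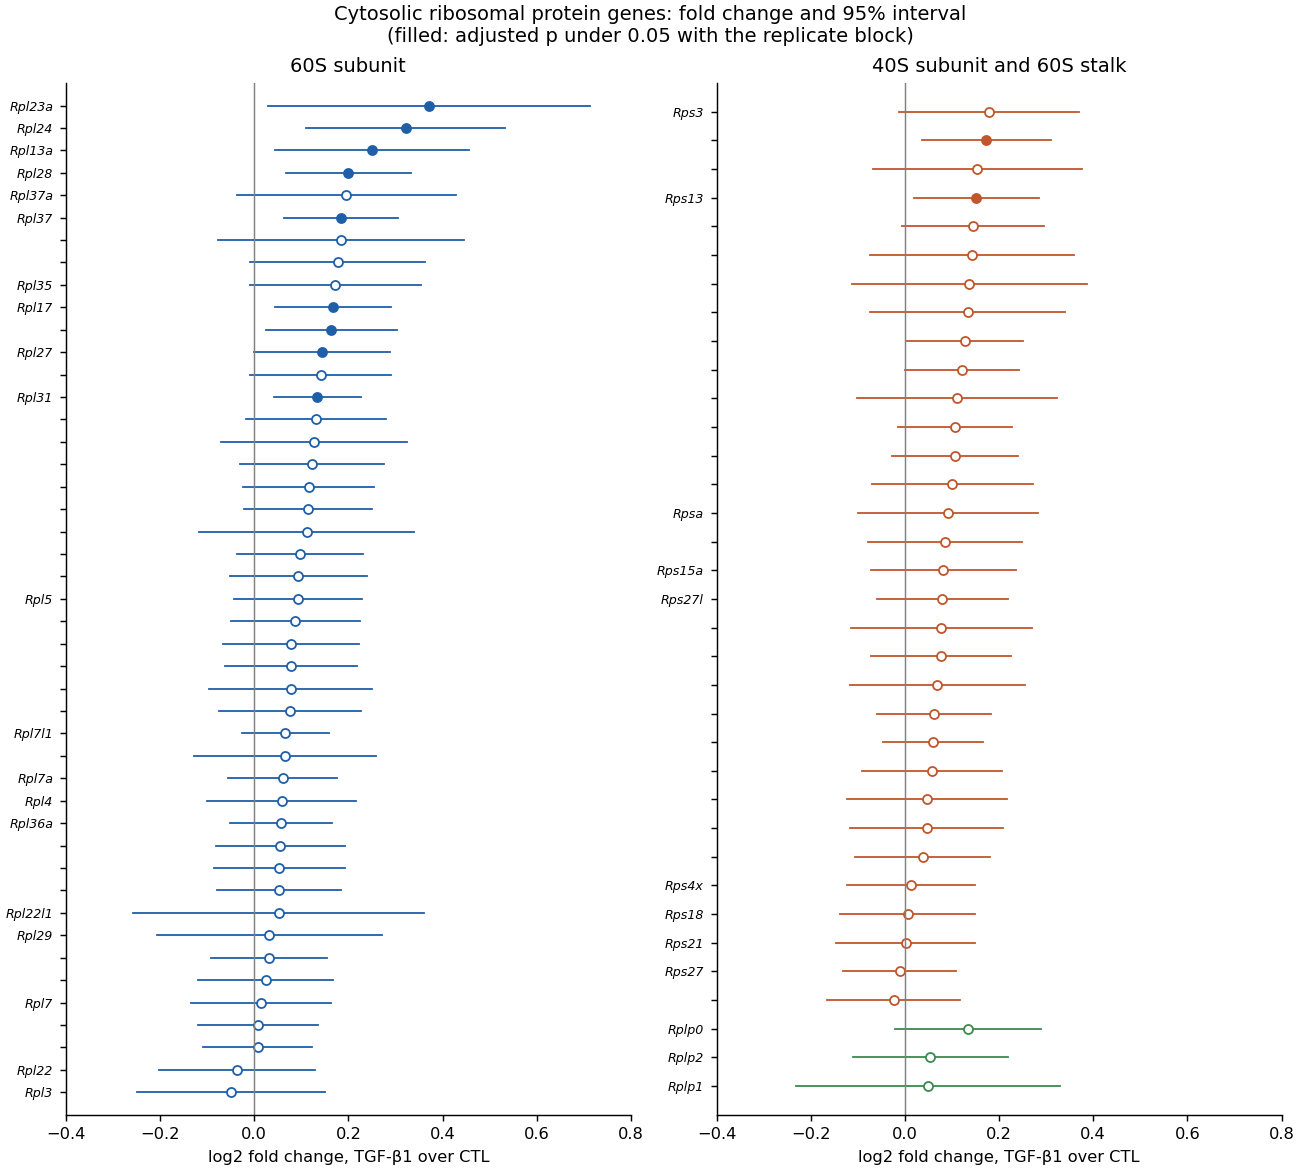
The log2 fold change of TGF-β1 over CTL (circles) and its 95% interval (lines) from edgeR without the block are given for each of the 80 genes tested, sorted within the 60S subunit (left), and the 40S subunit and the stalk (right), with names beside the genes described in the text. Filled circles mark the 11 genes that passed an adjusted p of 0.05 with the replicate block, and 76 of the 80 circles lie right of 0.

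The large subunit carries the peptidyl transferase centre and the exit tunnel. Its 45 tested genes outside the stalk had a median log2 fold change of 0.09, with 43 above 0. The largest fold changes of the family were in this subunit, in Rpl23a, Rpl24, Rpl13a, Rpl28 and Rpl37a.

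Rpl23a (chr11:78180932-78183584, minus strand), whose protein sits at the mouth of the exit tunnel, had 817, 861 and 613 normalized counts in the CTL cultures and 1074, 995 and 897 in the TGF-β1 cultures. The groups did not overlap, and the spread in CTL came from the low value of replicate 3. Its log2 fold change was 0.37 ± 0.14 (SE, n = 3 per group, edgeR adjusted p = 0.148), and 0.38 ± 0.07 with the block (edgeR adjusted p = 0.00512).

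Rpl24 (chr16:55966275-55971435, plus strand), a protein that forms a bridge to the small subunit, had 353, 391 and 388 normalized counts in CTL and 435, 501 and 480 in TGF-β1. All TGF-β1 cultures were above all CTL cultures. The log2 fold change was 0.32 ± 0.09 (SE, n = 3 per group, edgeR adjusted p = 0.0661), and 0.32 ± 0.07 with the block (edgeR adjusted p = 0.00972).

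Rpl13a (chr7:45125558-45128761, minus strand), a common reference gene for quantitative PCR, had 15115, 16253 and 16188 normalized counts in CTL and 17888, 21042 and 17639 in TGF-β1. The groups did not overlap, and replicate 2 was the highest of the TGF-β1 cultures. The log2 fold change was 0.25 ± 0.09 (SE, n = 3 per group, edgeR adjusted p = 0.114), 0.25 ± 0.06 with the block (edgeR adjusted p = 0.0126) and 0.18 without both cultures of replicate 2.

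Rpl28 had 4667, 4819 and 5113 normalized counts in CTL and 5585, 5802 and 5375 in TGF-β1, again without overlap. Its log2 fold change was 0.20 ± 0.05 (SE, n = 3 per group, edgeR adjusted p = 0.0680, and 0.0190 with the block). Rpl37a had 3722, 3979 and 4018 normalized counts in CTL and 4209, 5144 and 4071 in TGF-β1, where replicate 2 stood above the other two, and the groups did not overlap. Its log2 fold change of 0.20 ± 0.10 had an adjusted p of 0.242 by edgeR, and 0.0596 with the block.

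Reads over other genes bear on the first 3 of these. Of the tested genes, 16 share exon bases with another gene in the GENCODE M21 annotation, and 4 share more than 50% of them: Rpl24 shares 71.5% (with Gm28037), Rpl35 68.3%, Rpl23a 55.4% (with Tlcd1) and Rpl13a 54.9%. A read that fits 2 genes is counted for neither in the default mode of HTSeq, and 1.88% to 1.97% of the aligned reads of a culture were set aside in this way. The 16 genes had a median log2 fold change of 0.11 and the other 64 a median of 0.08, and 5 of the 16 were among the 11 called with the block. The part of this overlap in the fold changes was not tested.

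The lowest fold changes of the large subunit were those of Rpl3 and Rpl22. Rpl3, which reaches the peptidyl transferase centre, had 13061, 10972 and 12385 normalized counts in CTL and 11953, 10974 and 12268 in TGF-β1, with values of both groups interleaved. Its log2 fold change was -0.05, with a 95% interval from -0.25 to 0.15 and an edgeR adjusted p of 0.745. Rpl22, a protein that is not needed for translation in many cells, had 6206, 5900 and 6563 normalized counts in CTL and 5620, 6170 and 6407 in TGF-β1, and its interval ran from -0.20 to 0.13.

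Rpl4 and Rpl7 were among the 5 genes of the family with the most reads. Rpl4, which lines the exit tunnel, had 25547, 25184 and 27635 normalized counts in CTL and 26005, 27647 and 27943 in TGF-β1, with a log2 fold change of 0.06 and an interval from -0.10 to 0.22. Rpl7 had 14203, 13920 and 15244 in CTL and 13967, 14804 and 15038 in TGF-β1, with an interval from -0.13 to 0.16. In both, the range of the CTL cultures overlapped that of TGF-β1.

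The stalk proteins recruit the elongation factors to the ribosome. Rplp0, a reference gene in many expression assays, had 24600, 24972 and 25043 normalized counts in CTL and 26849, 29089 and 25936 in TGF-β1. The groups did not overlap, and the log2 fold change was 0.13 ± 0.06 (SE, n = 3 per group, edgeR adjusted p = 0.231, and 0.0908 with the block). Rplp1 had 11053, 12980 and 11770 normalized counts in CTL and 11465, 14380 and 11195 in TGF-β1, and replicate 2 was the highest in each group. Its interval ran from -0.23 to 0.33. Rplp2 had 6599, 6577 and 7290 in CTL and 6764, 7566 and 6910 in TGF-β1, with an interval from -0.11 to 0.22.

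The small subunit decodes the mRNA. Its 32 genes had a median log2 fold change of 0.08, with 30 above 0. Rps3, found at the mRNA entry site, had the highest of them at 0.18 ± 0.08 (SE, n = 3 per group, edgeR adjusted p = 0.199, and 0.0680 with the block). Its normalized counts were 17304, 17127 and 19000 in CTL and 18925, 21905 and 19664 in TGF-β1, so CTL replicate 3 reached into the TGF-β1 range. Rpsa, known also as the laminin receptor precursor, had 10796, 11204 and 11447 in CTL and 10892, 13121 and 11631 in TGF-β1, with an interval from -0.10 to 0.28.

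Rps18, the third common reference gene, had 5024, 5090 and 5536 normalized counts in CTL and 4975, 5417 and 5318 in TGF-β1. Its log2 fold change was 0.01 with an interval from -0.14 to 0.15. Of the 3 reference genes it lay nearest to 0, and Rpl13a lay farthest. Rps27 and Rps21 were among the lowest of the small subunit, with log2 fold changes of -0.01 and 0.00. Rps27 had 4231, 4558 and 4556 normalized counts in CTL and 4298, 4422 and 4520 in TGF-β1, and Rps21 had 5357, 5634 and 5682 against 5348, 5985 and 5356. In both genes the groups overlapped.

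**Figure D4:**
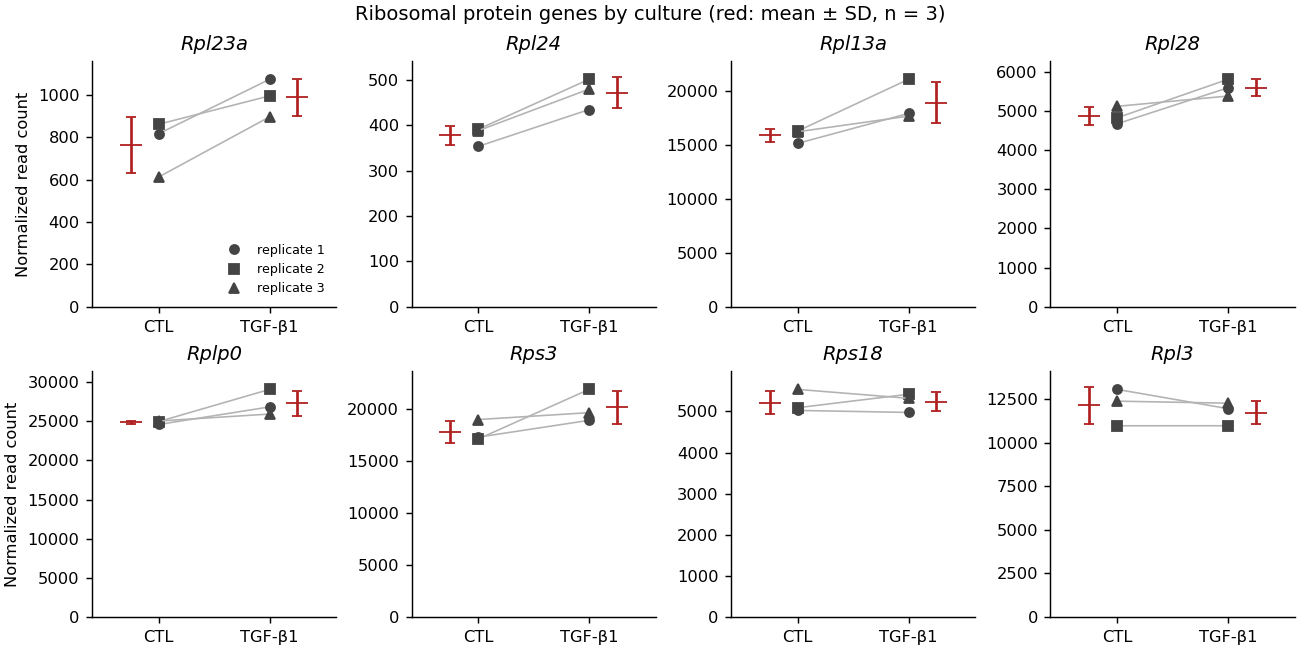
TMM-normalized read counts of 8 ribosomal protein genes are plotted for the CTL and TGF-β1 cultures, with lines joining cultures of the same replicate number and red bars for the mean ± SD (n = 3). Rpl23a, Rpl24, Rpl13a, Rpl28 and Rplp0 show no overlap of the groups, whereas the groups overlap in Rps3, Rps18 and Rpl3.

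A few of the genes have a second copy that makes an alternative protein. Rpl22l1, the paralog of Rpl22, had a log2 fold change of 0.05 with an interval from -0.26 to 0.36. Compared per kb of exon, Rpl22l1 stood below Rpl22, at a log2 value of -0.29 ± 0.15 in CTL and -0.20 ± 0.15 in TGF-β1 (mean ± SD, n = 3 each). Rps27l, a target of p53, had a log2 fold change of 0.08 with an interval from -0.06 to 0.22, and the log2 ratio to Rps27 per kb was -0.37 ± 0.04 in CTL and -0.28 ± 0.09 in TGF-β1 (mean ± SD, n = 3 each). Rpl7l1 stood much further below Rpl7, at -3.59 ± 0.07 in CTL and -3.54 ± 0.05 in TGF-β1 (mean ± SD, n = 3 each), and had a log2 fold change of 0.07.

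The paralogs with a tissue of their own were all but absent. Rpl3l, a gene of heart and skeletal muscle, had 3, 7 and 5 reads in CTL and 5, 11 and 7 in TGF-β1. Rpl10l, a testis gene, had no read in CTL and 2, 1 and 1 in TGF-β1, and Rpl39l had 0 to 2 reads in any culture. At these counts no difference was detectable, and a count of 0 allows up to 0.106 CPM in the smallest library, for counting error only. Rps4x, on the X chromosome, had a log2 fold change of 0.01 with an interval from -0.12 to 0.15, and Rpl36a, also on the X chromosome, 0.06 with an interval from -0.05 to 0.16.

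Since the subunits need their proteins in like amounts, the genes' levels were set against each other per kb of exon. The median over the 80 genes was 217 CPM per kb. Among the highest were Rplp1 at 768, Rplp0 at 607, Rpl4 at 547 and Rpl13a at 484 CPM per kb. The lowest were Rpl24 at 19.8, Rpl7l1 at 33.3, Rps15a at 33.8, Rpl29 at 43.7 and Rpl23a at 49.4 CPM per kb. The highest and the lowest thus differed 38.8-fold, and log2 levels had an SD of 1.09 over the genes. These are levels of counted reads. Rpl24 and Rpl23a share most of their exon bases with another gene, as given above, and reads over shared bases may not be counted. The part of this in the range of levels was not tested.

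Reads that aligned to several places, 18.7% to 19.4% of the aligned reads of a culture, were not counted on any gene. To see how much of each gene is its own, the 50-base windows of its transcripts, as long as a read, were searched in the transcripts of all other genes of GENCODE M21 (GRCm38). The median gene of the 83 had 58.4% of its windows to itself, with 4.91% in Rpl35, 6.16% in Rpl5 and 94.8% in Rpl22. Under 50% of windows were unique in 32 genes, and the windows of the median gene were shared with 8 pseudogenes, up to 120 pseudogenes for Rpl7a.

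The next 3 coding windows are found again in many genes and are shown because a read from them cannot be placed. Coordinates are GRCm38, and each window is read along the gene.
Rpl7a, chr2:26912379-26912428, plus strand: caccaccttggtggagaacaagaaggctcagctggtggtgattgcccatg
Rpl23a, chr11:78181504-78181553, minus strand: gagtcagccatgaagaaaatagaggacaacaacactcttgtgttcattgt
Rpl3, chr15:80080478-80080527, minus strand: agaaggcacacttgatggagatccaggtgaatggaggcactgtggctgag
The Rpl7a window recurs in 45 other genes, 42 of them pseudogenes, the Rpl23a window in 18 (17 pseudogenes) and the Rpl3 window in 16, all pseudogenes.

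The share of unique windows was then set against the level and the fold change. Over the 80 genes, Spearman's rho with the level per kb was -0.13 and with the log2 fold change -0.01, as a description, since the genes share their libraries. The 32 genes with under 50% unique windows had a median log2 fold change of 0.07 and the other 48 a median of 0.10. Dividing by unique windows in place of exon length widened the SD of the log2 levels from 1.09 to 1.48. The level of a single gene thus moved with the denominator, from 49.4 to 379 CPM per 1000 bases or windows in Rpl23a and from 547 to 677 in Rpl4.

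**Figure D5:**
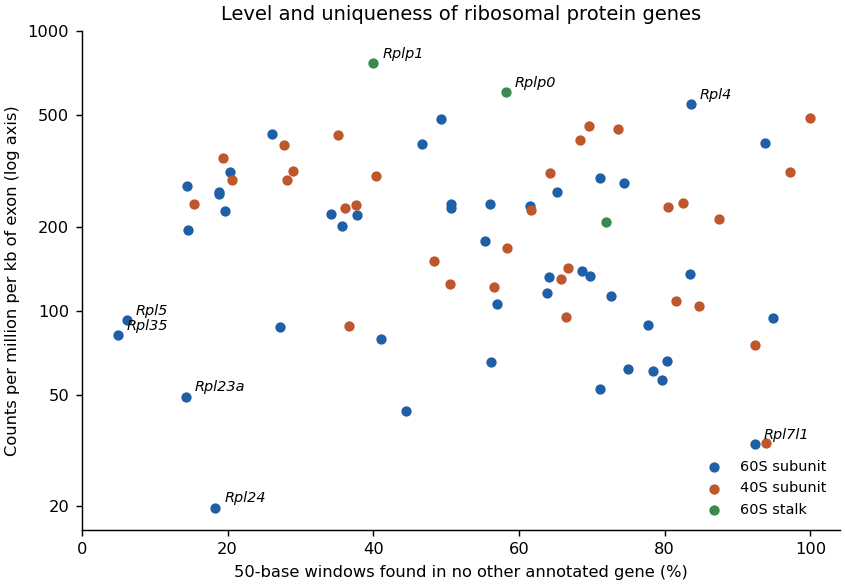
For the 80 genes, the level in CPM per kb of exon (vertical log axis, mean of 6 cultures) is plotted against the percentage of 50-base windows found in no other annotated gene. The level ranges from 19.8 to 768 CPM per kb, and Rpl24 and Rpl23a lie low at 18.3% and 14.3% unique windows, while Rpl7l1 lies low at 92.4%.

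Rows named as pseudogenes of the family held few reads. There were 267 such rows, for 58 of the 83 genes, and they took 15098 to 17700 reads per culture, which raised the family's share of the counts to between 1.76% and 1.89%. Of the 134 such rows tested, none was called in either direction and 3 rose with the block, beside 15.1% of all genes called higher with it. With these reads added to their parent genes, the family's median log2 fold change stayed 0.09 and no gene was called. Reads that aligned to several places are in none of these rows, so the addition could not recover them. Pseudogenes under other names were not added.

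The ribosomal protein genes that the naming rule missed were few. Fau, Rpl36al and Rack1 had log2 fold changes of 0.12 to 0.14, and none passed the test with or without the block. Of 16 mRNAs for translation factors and other proteins known to carry a TOP tract, such as Eef1a1, Eef2, Pabpc1 and Tpt1, none was called in either direction with or without the block, and their median was 0.06 (-0.01 with library size only), with 6 of 16 below 0. Eef1a1, the most abundant, had a log2 fold change of -0.03, and Eif4b the lowest at -0.09.

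Ribosome assembly factors build the subunits in the nucleolus. Of 32 tested, 1 rose and none fell, and with the block 8 rose and none fell, beside 5.00% and 15.1% of all genes called higher in these fits. Their median was 0.10, and 0.03 with library size only. The gene that passed both was Rrs1, an assembly factor of the large subunit, with 1372 ± 37.0 normalized counts in CTL and 1716 ± 170.2 in TGF-β1 (mean ± SD, n = 3) and a log2 fold change of 0.32 (edgeR adjusted p = 0.0492). It lost the call in each of the 9 fits without the block that left out 1 culture or a same-numbered pair, where its adjusted p was 0.0541 to 0.414. With all 6 cultures it also lost the call with size factors of the relative log expression kind (adjusted p = 0.0511), with library size only (0.0736), with at least 10 counts in every library (0.0518) and by limma-voom (0.0542), and kept it by DESeq2 (0.0210). The other 7 with the block were Nop56, Nop2, Bop1, Rrp12, Nmd3, Gnl3 and Mdn1. Of 12 genes of RNA polymerase I, which transcribes ribosomal RNA, none was called without the block. With it Polr1b fell by 0.17 on the log2 scale, beside 19.1% of all genes called lower. This call was lost without the pair of replicate 1 or of replicate 2.

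In a list of 14 genes for mTORC1 and the control of TOP mRNAs, which also held Myc and Max, none fell. Rheb, the GTPase that activates mTORC1, rose by a log2 fold change of 0.27 ± 0.06 (SE, n = 3 per group, edgeR adjusted p = 0.0334). Its call held in 1 of those 9 fits, with adjusted p from 0.0379 to 0.342, and was lost with library size only (log2 fold change 0.19, adjusted p = 0.0588). Of the 14 genes, 1 was called higher without the block and 3 with it, beside 5.00% and 15.1% of all genes. With the block, Rps6kb1 and Larp1 rose as well, at 0.15 and 0.14. Both lost this call without the pair of replicate 1, and Larp1 also without that of replicate 2. Mtor had a log2 fold change of 0.01 and Myc one of -0.15, neither past the test. The 78 mitochondrial ribosomal proteins, which serve a separate ribosome, had a median of 0.01 (-0.07 with library size only), with 37 below 0, and none was called without the block. With the block, 7 rose and 2 fell, again beside 15.1% and 19.1% of all genes.

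Other genes moved strongly in the same cultures. The dividing cell markers Mki67, Top2a, Ccnb1 and Ccna2 all fell, with log2 fold changes from -2.38 to -2.04 (edgeR adjusted p = 0.00379 to 0.0120), and their summed level was 36.1 to 58.5 CPM in CTL and 7.85 to 11.7 CPM in TGF-β1. The 5 epithelial markers had a median log2 fold change of -0.13 and a highest of 0.12, with 3 below 0. Of these 5, Cdh16 and Pax8 fell past the test, at -1.50 and -0.77. Of 5 proximal tubule markers 3 were tested, with a highest value of 0.09, and Lrp2 and Aqp1 fell, with -0.93 and -2.91. Without both cultures of replicate 1 no gene of the whole table was called in the fit without the block, these included. With the block, the same cultures gave 1026 genes higher and 1649 lower. All the falling markers named here were among them (edgeR adjusted p = 0.00021 to 0.0053). In fits without the block, Cdh16, Ccnb1, Lrp2 and Aqp1 also lost their calls without both cultures of replicate 3. So did Ccnb1 without TGF-β1 replicate 1 and Lrp2 without CTL replicate 1, all with fold changes in the same direction. With the block, Cdh16, Ccnb1, Lrp2 and Aqp1 kept their calls without the pair of replicate 3 (edgeR adjusted p at most 0.034). The part of these changes in the fold changes of the ribosomal protein genes was not tested.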

How the data were processed

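Polyadenylated RNA of 3 CTL and 3 TGF-β1 RTEC cultures was sequenced as single 50-base reads. Per the labels and the study's methods, reads were trimmed with Trim Galore, aligned to GRCm38 with STAR 2.4.1d and counted per gene with HTSeq 0.6.1. The deposited values are raw counts, and the annotation release, the counting mode and strandedness are not given in the sources used here. Gene names, lengths and transcripts came from GENCODE M21, which matched 46005 of 46517 genes.

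Counts were tested with edgeR 4.0.16 (filterByExpr, TMM, robust quasi-likelihood), two-sided, over 15862 genes, with limma 3.58.1 and DESeq2 1.42.0 as alternatives. Scripts were tested on simulated data. Same-numbered cultures deviated together (correlations of deviations from the group mean 0.34, 0.68 and 0.57), so the replicate number was also fitted as a block. No 2 libraries agreed within sampling noise. Depth was 28313080 to 34183497 counts per culture.

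Genes and lists were chosen with earlier results of these data known. Genes named with values were those past the test, the paralog pairs, the 5 highest and 5 lowest fold changes at 5 CPM or more, the 5 with most reads, 3 reference genes, Rpsa, Rplp1 and Rplp2. Some genes are not reported here. Sequences came from RefSeq and GENCODE. Intervals cover the spread between cultures, and count floors cover counting error only.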

Additional observations from a re-analysis of the deposited data

How the results depend on the processing

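No ribosomal protein gene was called lower under any alternative, and none was called higher under DESeq2, limma-voom, other scalings, other count filters, the stricter threshold, added pseudogene reads or a left-out culture without the block. With the replicate block 11 were called higher, 2388 of all genes higher and 3037 lower. When a pair was also left out, the block called 0 to 25 of the family higher (0 to 31.25%, beside 6.43% to 16.1% of all genes). Over all fits that left out cultures, calls among all genes ran from 0 to 2581 higher and 0 to 3254 lower, and the family's median log2 fold change from 0.04 to 0.12. Scaling by library size only called 508 genes higher and 1467 lower, in place of 793 and 1061, and an adjusted p under 0.01 called 127 and 192.

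The sign of small, uncalled log2 fold changes was not stable. With library size only it turned to -0.021 in Rpl10 and in Rpl22l1, -0.017 in Rpl36a, -0.016 in Rpl4, -0.059 in Rpl7, -0.0079 in Rpl7l1, -0.026 in Rplp1, -0.021 in Rplp2, -0.068 in Rps18, -0.073 in Rps21 and -0.061 in Rps4x. Rps21 was also at -0.0032 with at least 10 counts in every library, -0.00010 with the block and -0.00012 by limma-voom. With cultures left out, Rpl22 ran from -0.088 to 0.019, Rpl22l1 from -0.061 to 0.15, Rpl3 from -0.12 to 0.0058, Rpl7 from -0.021 to 0.055, Rplp1 from -0.080 to 0.12, Rplp2 from -0.021 to 0.12, Rps18 from -0.036 to 0.051, Rps21 from -0.060 to 0.045, Rps27 from -0.047 to 0.011 and Rps4x from -0.026 to 0.055. The other named genes tested had the same sign throughout, and the cause of the changes was not tested. Levels per window unique in the genome were not run. Levels per window unique among transcripts, and the count of intervals within 0.3, were chosen after seeing the data.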
